A study of Mus musculus with 9 samples.

Results

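The 83 gene rows examined here encode the nuclear subunits of the mitochondrial oxidative phosphorylation machinery. They were taken from the 23171 rows of the deposited table by gene symbol alone, as the Nduf genes with subunit letters, Sdha to Sdhd, the Uqcr genes, the Cox genes of structural subunits and the Atp5 genes. Complex I had 36 of these genes, complex II 4, complex III 8, complex IV 18 and complex V, the ATP synthase, 17. The symbol rule itself uses no measured value, but the genes were chosen with earlier results of these data known.

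RNA was measured in CD4 T cells from lymph nodes and spleen of C57BL6 mice, in 3 libraries labelled Hopx high, 3 labelled Hopx low and 3 labelled naive. Hopx is a homeodomain-only protein that is known in dendritic cell-induced regulatory T cells. Per the labels, chimeric antibodies that target antigen to dendritic cells were given intraperitoneally 5 days before the cells were sorted, and the T cells then spent 12 h in culture with APCs (antigen-presenting cells) before the final sort and the RNA extraction. The labels carry this same treatment text for all 9 libraries, the naive ones included. The antigen, the T cell receptor, the marker used to sort on Hopx and the number of mice behind a library are stated nowhere in the labels used here. Nothing in the labels says that replicates came from separate animals, so each p-value reflects only how these samples spread, which may be technical.

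Oxidative phosphorylation couples electron transport to ATP synthesis in the inner mitochondrial membrane. Complex I (NADH dehydrogenase) and complex II (succinate dehydrogenase) pass electrons to ubiquinone, complex III hands them to cytochrome c, and complex IV (cytochrome c oxidase) reduces oxygen, while complexes I, III and IV pump protons that drive the ATP synthase. Most subunits are nuclear genes, and a smaller core is encoded in mitochondrial DNA. In T cells, activation is known to raise both glycolysis and mitochondrial mass, and regulatory T cells are known for their reliance on respiration.

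Levels are given as bases per Mb, the bases of summed coverage over a gene per 1000000 bases summed over all rows of that library, and they are not corrected for gene length unless "per kb" is written. The libraries held 203 to 800 megabases of summed coverage in the Hopx high group, 330 to 442 in the Hopx low group and 63.3 to 289 in the naive group. The depth in reads is unknown, so no counting interval is given. Naive replicates 1 and 2 differed by about sampling noise and were counted as 1 sample (the mean of both), which leaves n = 2 for naive cells. The noncoding RNA Gas5 took 1.16 to 21.3% of coverage in Hopx high, 4.09 to 18.5% in Hopx low and 5.68 to 40% in naive libraries. Hopx itself was at 8.95, 7.79 and 4.89 bases per Mb in Hopx high and at 3.32, 6.90 and 3.29 in Hopx low. It was at 0, 0 and 1.64 in naive libraries. The Hopx high and Hopx low groups overlapped in this transcript, though Hopx high was the higher library in each same-numbered pair. The summed level of 12 CD4 T cell marker genes was 2720 to 5110 in Hopx high, 3400 to 5370 in Hopx low and 2560 to 4160 in naive libraries, and no marker of that list was at 0 throughout a group. All 3 naive libraries had Xist at 76.1 to 263 bases per Mb and 4 Y-linked genes (Uty, Ddx3y, Kdm5d, Eif2s3y) at 0.3 or below, while the 6 Hopx libraries had Xist at 0.4 or below and the Y-linked genes at 17.7 to 85.5. Animal sex and the naive label therefore cannot be told apart in any comparison with naive cells.

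Of the 83 genes, 76 reached a mean of 1 base per Mb and were tested. Cox4i2, Cox6a2, Cox7a1, Cox7b2, Cox8b, Cox8c and Ndufa4l2 did not, and Cox7b2, Cox8b and Cox8c were at 0 in all 9 libraries. Cox6b2 lay just inside that limit with a mean of 1.214, and Cox7a1 just outside it with 0.4875. Together the 83 genes took 0.605 to 1.07% of coverage in Hopx high, 0.658 to 1.03% in Hopx low and 0.484 to 0.571% in naive libraries. How the authors' counting treated strand is not stated, and 37 of the 83 genes overlap another annotated gene, so coverage of those may hold reads of a neighbour.

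**Figure D1:**
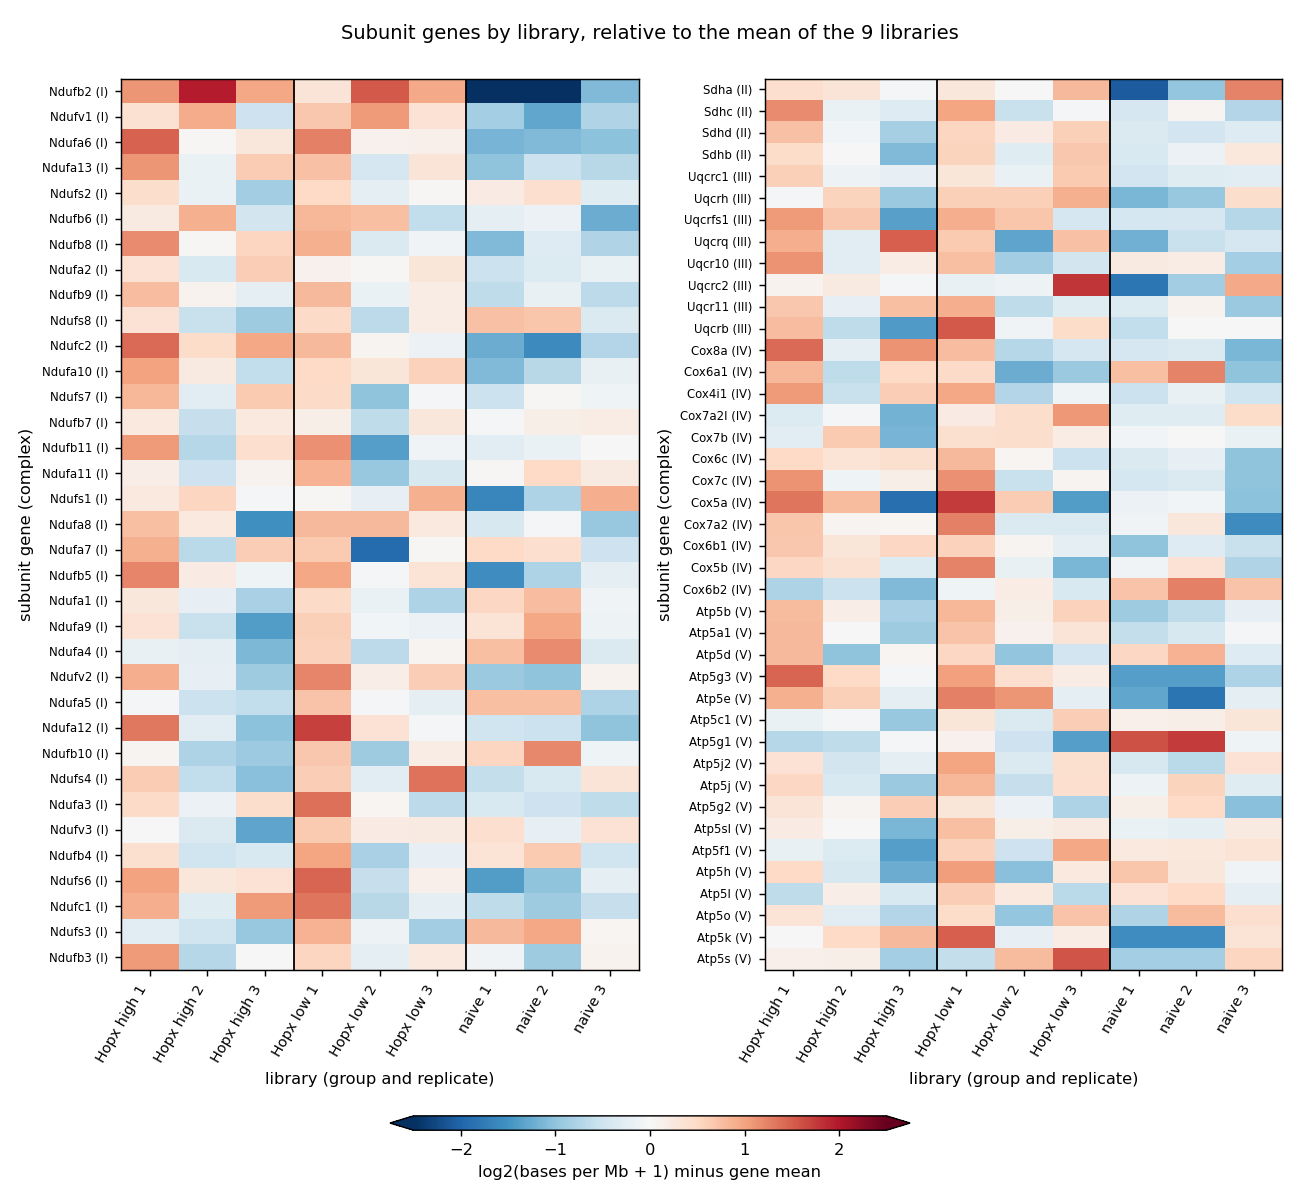
Level of the 76 tested subunit genes in each library, as log2(bases per Mb + 1) minus that gene's mean over the 9 libraries (red higher, blue lower, with arrows where the colour scale ends). Genes run down by complex and then by level, libraries run across, and black lines part the groups. Ndufb2 is red in the 6 Hopx libraries and blue in the 3 naive ones, and 73 of 76 genes are above their mean in Hopx low 1.

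Per kb of the principal transcript, and averaged over the 8 samples, the tested genes ranged from 0.866 bases per Mb for Atp5s to 1110 for Ndufb2. Within complex I the level per kb ran from 8.47 for Ndufb3 to 212 for Ndufa6, with Ndufb2 above them all. Complex II genes were close to each other, with Sdhd at 55, Sdhb at 50.2, Sdha at 33.6 and Sdhc at 30.5 bases per Mb per kb. In complex III the small subunits Uqcrh and Uqcrq led with 319 and 253. In complex IV Cox8a led with 583 and Cox6a1 with 409. In complex V the catalytic beta subunit Atp5b was at 566, and Atp5g3, a gene for the membrane ring, at 306. Ndufa4 was filed under complex I by its symbol, although its product is now regarded as part of complex IV, and Atp5s and Atp5sl carry the Atp5 name without being structural subunits.

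The tissue-restricted isoforms were near the bottom. Cox4i1 took 99.1 to 100% of the Cox4 pair per kb in every library, against Cox4i2, its hypoxia- and lung-associated isoform. Cox6a1, the form of most tissues, took 99.9 to 100% against Cox6a2, the form of heart and muscle. Cox7a2, the form of most tissues, took 92.6 to 100% against Cox7a1, the form of heart and muscle. Cox6b2, known as the testis form, was at 0.259, 0.484 and 0 bases per Mb in Hopx high, at 0.993, 1.45 and 0.637 in Hopx low and at 2.53, 4.17 and 2.54 in naive libraries. The Hopx high libraries were all below the Hopx low ones, and these below the naive ones. At an assumed 100 bases per read, 1 read would be worth 1.58, 1.16 and 0.346 bases per Mb in naive replicates 1 to 3, so these levels rest on few reads. The difference of Cox6b2 did not pass the test in Hopx high against naive cells (log2 difference -1.67, limma adjusted p = 0.112).

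Summed over its subunits, each complex was present in all 9 libraries and varied more between replicates than between the Hopx groups. Complex I summed to 3164, 2665 and 2060 bases per Mb in Hopx high, to 2957, 2334 and 2217 in Hopx low and to 1308, 1522 and 1303 in naive libraries. The 6 Hopx libraries were above the 3 naive ones. Complex II summed to 471.1, 281.6 and 199.2 in Hopx high, to 427.5, 245.1 and 395.0 in Hopx low and to 166.9, 217.3 and 341.5 in naive libraries, with all groups overlapping. Complex III summed to 1259, 868.5 and 819.2 in Hopx high, to 1212, 793.9 and 1213 in Hopx low and to 528.5, 617.4 and 733.6 in naive libraries. For complex III, too, every Hopx library lay above the naive ones in bases per Mb. The order of the libraries was not examined on other scales for single complexes. Complex IV summed to 1882, 955.9 and 1377 in Hopx high, to 1715, 812.7 and 942.5 in Hopx low and to 995.1, 1213 and 677.7 in naive libraries, with overlap throughout. Complex V summed to 3943, 2365 and 1592 in Hopx high, to 3971, 2394 and 2895 in Hopx low and to 1844, 2142 and 2056 in naive libraries. Hopx high 3 was below all 3 naive libraries there. All subunits together came to 7968 ± 2440 bases per Mb in the Hopx high group and 8175 ± 1900 in the Hopx low group (SD, n = 3 each), against 5195 ± 117 in naive cells (SD, n = 2). These sums were described without a test. In bulk samples, fewer cells of a type and less RNA per cell cannot be told apart.

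**Figure D2:**
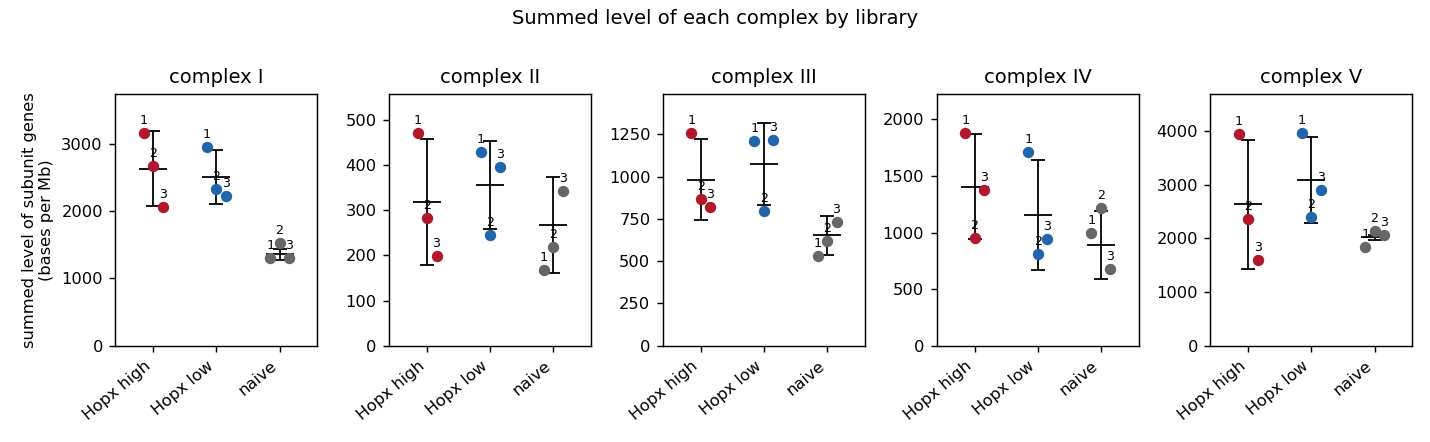
Summed level of the subunit genes of complexes I to V in bases per Mb, with 1 point per library (numbered by replicate) and bars for the mean ± SD (n = 3 for Hopx high and Hopx low, n = 2 for naive after averaging replicates 1 and 2). The complex I sums of Hopx high (2060 to 3164) and Hopx low (2217 to 2957) overlap, and both lie above naive (1303 to 1522).

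The scale of these sums depends on what else filled a library. Dividing the sum of all subunits by the library's median gene gave 258, 232 and 255 in Hopx high, 261, 208 and 180 in Hopx low and 263, 260 and 119 in naive libraries, so on that scale the naive replicates 1 and 2 were among the highest and naive 3 the lowest. Ndufb2 also weighed on the complex I sum. It made up 18.7, 40.1 and 26.1% of complex I coverage in Hopx high and 11.6, 34.0 and 23.8% in Hopx low, against 2.82, 2.4 and 9.75% in naive libraries. Without it, complex I summed to 2572, 1596 and 1522 in Hopx high and to 2613, 1540 and 1690 in Hopx low. Naive libraries came to 1271, 1485 and 1176. In bases per Mb the Hopx libraries were still the higher ones, with Hopx high 3 only just above naive 2. The library totals behind this scale include Gas5, whose share was largest in naive 1 and 2. Whether this order holds without Gas5 or per median gene was not tested.

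The comparison of Hopx high with Hopx low cells asks whether cells with different Hopx levels differ after restimulation. No subunit gene passed the test, as 0 of 76 were called by limma at an adjusted p under 0.05, where 0.0% of all 10825 genes tested were called. The smallest adjusted p of a subunit gene was 0.992, and 1 of 76 (Cox7a2l, lower) had an unadjusted p under 0.05, against 4.5% of all genes (2.07% higher and 2.43% lower). The median log2 difference was -0.14 over the 76 genes and -0.25 over all genes tested, and 32 of 76 had a positive difference, against 30.0% of all genes. The median over the 35 tested complex I genes was -0.08, over complex II -0.31, over complex III -0.23, over the 12 tested complex IV genes 0.20 and over complex V -0.40. The median half-width of a subunit gene's 95% interval, not adjusted for the number of genes, was 1.09 on the log2 scale. An interval clear of 0 was not enough for a call, as Cox7a2l at -1.09 had a limma adjusted p of 0.992. Changes of that size can therefore go without a call in these samples.

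The Hopx high libraries lay outside the range of the Hopx low ones for 4 of 76 genes, all lower, where 14.5% of all genes were apart and 10.1% were apart and lower. Cox7a2l was filed under complex IV by its symbol. It was at 98.3, 120 and 54.4 bases per Mb in Hopx high, against 143, 168 and 264 in Hopx low. Its log2 difference was -1.09 ± 0.45 (SE, 95% interval -2.04 to -0.14, limma adjusted p = 0.992). Naive libraries had Cox7a2l at 101 and 100, within the Hopx high range, and at 172, within the Hopx low range. Uqcrh, the hinge protein of complex III, was at 139, 212 and 75 in Hopx high and at 219, 217 and 267 in Hopx low libraries. Ndufv3, an accessory subunit of the NADH-oxidizing module, was at 14.9, 11.4 and 5.36 in Hopx high and at 24.2, 17.5 and 17.7 in Hopx low libraries. The remaining gene of the 4 was Cox6b2. Next in order of p were Atp5f1, the b subunit of the ATP synthase stalk, at 25.2, 22.5 and 10.5 in Hopx high and 43.5, 19.7 and 56.8 in Hopx low, and Cox8a, the general isoform of a small complex IV subunit, at 685, 219 and 564 in Hopx high and 440, 157 and 191 in Hopx low. Both overlapped between the groups, with log2 differences of -0.97 for Atp5f1 and 0.89 for Cox8a (limma adjusted p = 0.992 for each).

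With the 6 Hopx libraries fitted alone, without the naive samples in the estimate of the spread, 0 of 75 subunit genes were called, where 0.636% of 10846 genes were. Unadjusted p was under 0.05 for 5 of them, all lower in Hopx high (Cox7a2l, Atp5f1, Uqcrb, Ndufv3 and Uqcrh), against 9.77% of all genes (3.31% higher and 6.46% lower), and the smallest adjusted p was 0.287, for Cox7a2l. The Hopx groups were apart for 3 of 75, all lower, where 14.5% of these genes were apart and 9.98% were apart and lower. Uqcrb, a small complex III subunit at the ubiquinone site, was at 33.2, 11.9 and 6.5 in Hopx high and at 56.6, 17.7 and 26.6 in Hopx low libraries. Same-numbered Hopx libraries deviated together, and the fit of these 6 with the replicate number as a block again called 0 of 75, where 0.691% of all genes were called. In that blocked fit the unadjusted p was under 0.05 for 9 of 75, of which 4 were higher and 5 lower, against 12.8% of all genes. Among the marker lists of other cells, the B cell and dendritic cell sums did not overlap between the Hopx groups. The sums of CD8 T cell, macrophage or monocyte, NK cell and erythroid markers overlapped. Of the B cell list, 10 genes were in the table and 3 of them reached the expression limit. The summed level of the 10 was 3.79 to 10 bases per Mb in Hopx high against 22.7 to 31.0 in Hopx low libraries. Of the dendritic cell list, 13 genes were in the table and 6 of them reached the expression limit. The 13 genes summed to 540 to 895 in Hopx high against 1310 to 2230 in Hopx low libraries, while Xcr1, Clec9a, Cd209a and Siglech were at 0 in all libraries. This list includes Ccr7, and levels of single markers are not given here, so the sum does not show which cells it comes from. The part of other cells in the subunit levels was not tested.

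Against naive cells, 2 of 76 subunit genes were higher in Hopx high and none lower, where 3.8% of all genes were called (3.3% higher and 0.499% lower). Both were complex I genes, Ndufb2 and Ndufc2. In Hopx low against naive cells 1 of 76 was called, again Ndufb2 and again higher, where 0.305% of all genes were called (0.296% higher and 0.00924% lower). Both comparisons share the naive samples, so these counts are not independent of each other. Without naive 3, limma called 8 of 76 in Hopx high (7 higher and 1 lower) and 11 of 76 in Hopx low (10 higher and 1 lower) against naive, where 25.1% and 25.7% of all genes were then called. The B cell markers summed to 13.4 to 44.6 bases per Mb and the dendritic cell markers to 1100 to 2920 in naive libraries, above the Hopx high values given before and overlapping those of Hopx low. The 7 NK cell markers summed to 7.95 to 29.9 in Hopx high and 4.53 to 20 in Hopx low, against 0.537 to 3.03 in naive libraries. Only 1 of the 7 reached the expression limit, and Klrb1c, Klra8 and Gzma were at 0 in all 9 libraries. In Hopx low, the CD8 T cell markers (25.3 to 31.4) and the macrophage or monocyte markers (10.8 to 20.8) were above naive libraries (15.6 to 23.8 and 5.18 to 10.2). Both sums overlapped naive in Hopx high (14.8 to 31.1 and 4.9 to 11.3). Whether these sums reflect other cells, and the part of such cells in the results, was not tested.

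Ndufb2 encodes an accessory subunit of the membrane arm of complex I. It was at 592, 1070 and 537 bases per Mb in Hopx high and at 344, 794 and 527 in Hopx low libraries, against 36.9, 36.5 and 127 in naive libraries. Every Hopx library was above every naive library, and replicate 2 was the highest in both Hopx groups. The log2 difference was 3.33 ± 0.56 in Hopx high against naive (SE, 95% interval 2.16 to 4.50, limma adjusted p = 0.00133) and 2.92 ± 0.56 in Hopx low against naive (95% interval 1.75 to 4.09, limma adjusted p = 0.0217). Between Hopx high and Hopx low it was 0.41 (95% interval -0.63 to 1.46). Among the 83 genes Ndufb2 ranked 4, 1 and 2 by level in Hopx high and 5, 2 and 3 in Hopx low, against 40, 43 and 8 in naive libraries. In the authors' deposited table the fold was 11 for Hopx high over naive and 8.3 for Hopx low over naive, with unadjusted p-values of 0.0178 and 0.0218. The call in Hopx low against naive was lost with library totals that leave out Gas5 (log2 difference 2.72, limma adjusted p = 0.0523), and without Hopx high 1, Hopx high 3 or Hopx low 2 (limma adjusted p = 0.0967, 0.0958 and 0.174).

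Ndufb2 lies on the plus strand at chr6:39592574-39603382 (mm10). It overlaps Braf and the antisense gene Gm16272 on the other strand and Gm42420 on its own strand. Braf, a kinase gene, was at 28.5, 24.4 and 17.9 in Hopx high and at 24.1, 20.7 and 30.8 in Hopx low, against 7.15, 8.89 and 50.6 in naive libraries. Braf was low in naive 1 and 2 and highest in naive 3, and its levels were far below those of Ndufb2 in the Hopx libraries. Reads of Braf and Gm16272 cannot be told apart from those of Ndufb2 without strand, and strand would not part those of Gm42420. Levels of Gm16272 and Gm42420 are not given here.

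Ndufc2, another membrane arm subunit, was at 117, 59.9 and 85.8 bases per Mb in Hopx high and at 76.0, 45.2 and 38.7 in Hopx low, against 17.7, 13.6 and 25.6 in naive libraries. The Hopx libraries were again all above the naive ones. The log2 difference was 2.02 ± 0.54 in Hopx high against naive (SE, 95% interval 0.90 to 3.15, limma adjusted p = 0.0401) and 1.31 ± 0.54 in Hopx low against naive (95% interval 0.18 to 2.43, limma adjusted p = 0.467). Between Hopx high and Hopx low it was 0.72 (95% interval -0.29 to 1.72), an interval that includes 0, so the Hopx groups were not shown to differ. The gene lies on the plus strand at chr7:97400003-97407802 (mm10) and overlaps the pseudogene Gm16053 on the same strand. Its call was lost without any 1 of the 6 Hopx libraries or naive 2 (limma adjusted p = 0.0511 to 0.177).

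**Figure D3:**
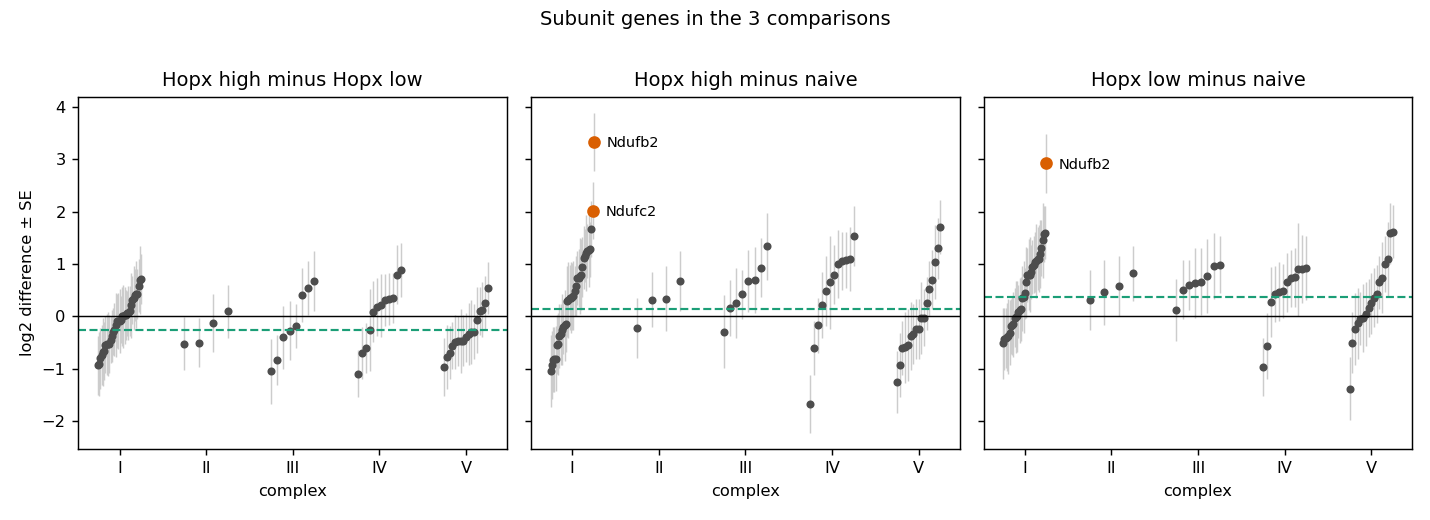
Log2 difference ± SE of each tested subunit gene in the 3 comparisons, by complex and sorted within it. Large orange points passed limma's test (adjusted p under 0.05), the black line marks 0 and the dashed green line the median of all genes tested (-0.25, 0.15 and 0.38). No gene is orange in Hopx high against Hopx low, and Ndufb2 stands above the rest in both comparisons with naive cells.

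The promoters of Ndufb2 and Ndufc2 are shown because these are the subunit genes that rose. The windows, mostly upstream of the RefSeq start and reaching just past it, are in the gene's direction, from RefSeq on GRCm38.p6, at chr6:39592315-39592614 for Ndufb2 and chr7:97399753-97400052 for Ndufc2, both on the plus strand. Letters are lower case and a searched motif would stand in capitals, and neither window holds a match.
Ndufb2: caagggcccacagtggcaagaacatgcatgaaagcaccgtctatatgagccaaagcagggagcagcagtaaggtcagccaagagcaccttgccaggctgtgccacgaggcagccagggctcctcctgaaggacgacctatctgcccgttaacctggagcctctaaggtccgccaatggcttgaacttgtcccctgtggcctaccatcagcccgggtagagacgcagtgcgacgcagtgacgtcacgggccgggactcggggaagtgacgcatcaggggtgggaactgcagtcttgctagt
Ndufc2: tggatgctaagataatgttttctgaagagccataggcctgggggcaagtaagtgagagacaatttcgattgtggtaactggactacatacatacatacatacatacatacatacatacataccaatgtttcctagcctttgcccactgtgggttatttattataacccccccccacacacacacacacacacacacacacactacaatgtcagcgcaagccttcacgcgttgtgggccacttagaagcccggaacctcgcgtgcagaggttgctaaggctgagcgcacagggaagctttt

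Motifs known from promoters of respiratory chain genes were searched on both strands, as the fixed letters CGCATGCG for NRF1 (the core of its site), CCGGAAGT for the ETS family with GABP, and AAGATGGC for YY1. None of these letter strings overlaps another. Of the 83 genes 68 had a promoter entry. NRF1's letters were in 8 of these windows (Atp5g2, Atp5k, Atp5l, Cox6a1, Ndufa8, Ndufa11, Uqcrc1 and Uqcr11), a share of 11.8% against 1.91% of the windows of 27025 genes. The ETS letters were also in 5 (Ndufs3, Uqcrh, Uqcr11, Atp5h and Cox8a), or 7.35% against 4.0%. The YY1 letters were in 10, or 14.7% against 2.88%. A match describes the letters and is no measure of binding.

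Outside these calls, the median log2 difference of the 76 genes was 0.36 in Hopx high against naive, where all genes had 0.15, and 0.50 in Hopx low against naive, where all genes had 0.38. By complex, the medians in Hopx high against naive were 0.38 for I, 0.33 for II, 0.54 for III, 0.72 for IV and -0.24 for V. In Hopx low against naive they were 0.44 for I, 0.52 for II, 0.65 for III, 0.57 for IV and 0.25 for V. Unadjusted p was under 0.05 for 12 of 76 genes in Hopx high against naive (10 higher and 2 lower), where 15.5% of all genes were (11.1% higher and 4.36% lower). It was under 0.05 for 7 of 76 in Hopx low against naive (6 higher and 1 lower), where 8.52% of all genes were (8.06% higher and 0.462% lower). The groups were apart, with naive 1 and 2 averaged, for 25 of 76 genes in Hopx high against naive (19 higher and 6 lower), where 25.3% of all genes were apart (15.3% higher and 10.1% lower). They were apart for 23 of 76 in Hopx low against naive (22 higher and 1 lower), where 22.9% of all genes were (19.1% higher and 3.81% lower).

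Among the other complex I genes, Ndufa6, an accessory subunit of the LYR-motif family, was at 265, 96.6 and 116 bases per Mb in Hopx high and at 228, 102 and 103 in Hopx low, against 41.8, 43.5 and 46.3 in naive libraries. Every Hopx library exceeded the naive ones, with log2 differences of 1.67 and 1.57 in Hopx high and Hopx low against naive (limma adjusted p = 0.0972 and 0.315). Ndufv1, the flavoprotein that takes electrons from NADH, was at 158, 231 and 84.9 in Hopx high and at 194, 257 and 157 in Hopx low, against 67.2, 48.9 and 71.9 in naive libraries. The groups were apart for Ndufv1 as well, with log2 differences of 1.16 and 1.60 (limma adjusted p = 0.254 and 0.245). Ndufa13, an accessory subunit also known as GRIM-19, was at 227, 93.4 and 164 in Hopx high and at 176, 78.5 and 132 in Hopx low, against 52.1, 72.3 and 64.4 in naive libraries. The core iron-sulfur subunit Ndufs1 was at 38.4, 47.7 and 31.7 in Hopx high and at 33.4, 28.2 and 61.4 in Hopx low, against 9.85, 18.7 and 62.0 in naive libraries, and overlapped throughout.

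In complex II, Sdha, the flavoprotein of succinate dehydrogenase, was at 102, 95.1 and 74.1 in Hopx high and at 92.0, 75.2 and 134 in Hopx low, against 17.2, 38.1 and 179 in naive libraries, so the naive libraries held both its lowest and its highest value. Sdhb, the iron-sulfur subunit, was at 72.4, 52.3 and 23.8 in Hopx high and at 77.2, 42.2 and 84.5 in Hopx low, against 39.8, 47.1 and 63.0 in naive libraries. Sdhd, a membrane anchor, was at 102, 58.7 and 34.1 in Hopx high and at 89.2, 70.6 and 92.9 in Hopx low, against 47.1, 43.4 and 48.7 in naive libraries, and the Hopx low libraries alone were clear of the naive ones. In complex III, the core protein Uqcrc1 was at 403, 243 and 232 in Hopx high and at 332, 239 and 422 in Hopx low, against 191, 215 and 222 in naive libraries. All Hopx libraries were above naive for Uqcrc1, by a log2 difference of 0.42 in Hopx high and 0.60 in Hopx low (limma adjusted p = 0.769 and 0.759). Uqcrq, a small accessory subunit, was at 147, 63.6 and 222 in Hopx high and at 124, 30.6 and 131 in Hopx low, against 33.4, 52.5 and 58.2 in naive libraries, and replicate 2 was the lowest of both Hopx groups.

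In complex IV, Cox8a at its levels given above was apart from naive libraries (191, 199 and 116) in Hopx high, with a log2 difference of 1.54 (limma adjusted p = 0.162), and overlapped them in Hopx low. Cox6b1, the general isoform beside Cox6b2, was at 47.3, 36.5 and 42.5 in Hopx high and at 44.6, 30.8 and 25 in Hopx low, against 14.1, 23.4 and 19.7 in naive libraries. Both Hopx groups were above naive for Cox6b1, with log2 differences of 1.08 and 0.73 (limma adjusted p = 0.351 and 0.751). Cox6b1 made up 98.3 to 100% of the Cox6b pair per kb in Hopx high and 94.1 to 97.1% in Hopx low, against 80.8 to 85.4% in naive libraries. Cox6a1 was at 384, 137 and 305 in Hopx high and 298, 90.0 and 113 in Hopx low, against 364, 507 and 107 in naive libraries, and overlapped throughout. Cox6c, a small accessory subunit, was at 47.1 to 52.9 in Hopx high and 25.2 to 65.7 in Hopx low, against 18.0 to 31.8 in naive libraries. Cox7b, another, was at 41.2 to 147 in Hopx high and 106 to 127 in Hopx low, against 83.7 to 94.3 in naive libraries.

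In complex V, Atp5b was at 1620, 1050 and 534 in Hopx high and at 1670, 1040 and 1390 in Hopx low, against 507, 605 and 808 in naive libraries. Hopx low was apart from naive for Atp5b, and Hopx high 3 lay within the naive range. Atp5a1, the alpha subunit of the catalytic head, was at 839, 478 and 259 in Hopx high and at 781, 512 and 597 in Hopx low, against 315, 362 and 459 in naive libraries, with Hopx high 3 the lowest of all 9. Together both genes made up 13.1% of subunit coverage in Hopx high 3, against 21.5 to 25.9% in the other Hopx libraries and 16.9 to 24.8% in naive libraries. Atp5o, the stalk subunit that confers oligomycin sensitivity, was at 9.02, 5.60 and 3.77 in Hopx high and at 10, 3.06 and 12.1 in Hopx low, against 3.71, 12.8 and 9.60 in naive libraries.

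None of the 3 genes for subunit c, the protein of the ATP synthase ring, was called in any comparison. Atp5g1, Atp5g2 and Atp5g3 encode the same mature protein behind different import sequences, and reads of near-identical copies may be split between them, so their separate levels are uncertain. Atp5g3 was at 452, 235 and 160 bases per Mb in Hopx high and at 335, 221 and 188 in Hopx low, against 63.1, 62.5 and 95.9 in naive libraries, all Hopx libraries above naive. The log2 differences of Atp5g3 were 1.71 in Hopx high and 1.62 in Hopx low against naive (limma adjusted p = 0.0693 and 0.253). Atp5g1 was at 41.4, 43.7 and 66.1 in Hopx high and at 74.0, 47.5 and 25.8 in Hopx low, against 209, 235 and 63.5 in naive libraries, where naive 3 lay within the Hopx range. Its log2 differences were -1.25 and -1.38 (limma adjusted p = 0.32 and 0.506). Atp5g2 was at 62.4, 52.7 and 77.4 in Hopx high and at 61.6, 45.2 and 28.8 in Hopx low, against 55, 71.3 and 23.5 in naive libraries, with all groups overlapping. Of the 3 genes' summed level per kb, Atp5g1 took 8.24, 14.0 and 21.8% in Hopx high and 16.9, 16.2 and 11.6% in Hopx low, against 62.2, 61.3 and 36.2% in naive libraries, with no overlap between Hopx and naive libraries. Atp5g3 took 75, 63.1 and 43.8% in Hopx high and 64.0, 63.0 and 70.8% in Hopx low, against 15.7, 13.6 and 45.7% in naive libraries, where naive 3 exceeded Hopx high 3. These shares were described without a test.

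**Figure D4:**
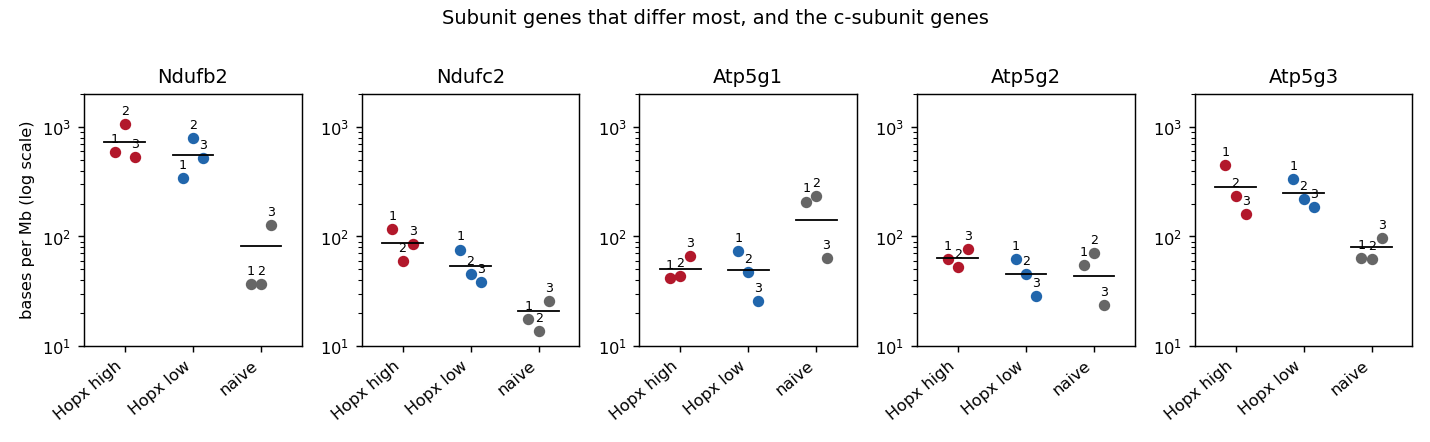
Level in bases per Mb (log axis) of Ndufb2, Ndufc2 and the 3 subunit c genes, with 1 point per library, numbered by replicate, and a line at the group mean (n = 3 for Hopx high and Hopx low, n = 2 for naive after averaging replicates 1 and 2). Ndufb2, Ndufc2 and Atp5g3 are above the naive libraries in all 6 Hopx libraries, Atp5g1 is highest in naive 1 and 2 (209 and 235), and Atp5g2 overlaps between all groups.

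The promoter windows of the subunit c genes are shown because 3 promoters supply 1 mature protein. They come from RefSeq on GRCm38.p6 and run 5′ to 3′ on the minus strand, at chr11:96075582-96075881 for Atp5g1, chr15:102670998-102671297 for Atp5g2 and chr2:73911277-73911576 for Atp5g3. Capitals mark the NRF1 letters, which Atp5g2 alone of the 3 holds. The Atp5g2 window surrounds the start of its RefSeq entry and lies inside the gene's GENCODE span, chr15:102662864-102672352, downstream of the start given there.
Atp5g1: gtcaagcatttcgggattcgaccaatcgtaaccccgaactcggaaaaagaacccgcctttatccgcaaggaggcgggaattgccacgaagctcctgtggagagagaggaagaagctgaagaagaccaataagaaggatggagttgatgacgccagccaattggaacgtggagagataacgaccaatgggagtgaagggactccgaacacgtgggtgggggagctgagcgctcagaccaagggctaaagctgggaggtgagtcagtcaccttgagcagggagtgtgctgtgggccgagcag
Atp5g2: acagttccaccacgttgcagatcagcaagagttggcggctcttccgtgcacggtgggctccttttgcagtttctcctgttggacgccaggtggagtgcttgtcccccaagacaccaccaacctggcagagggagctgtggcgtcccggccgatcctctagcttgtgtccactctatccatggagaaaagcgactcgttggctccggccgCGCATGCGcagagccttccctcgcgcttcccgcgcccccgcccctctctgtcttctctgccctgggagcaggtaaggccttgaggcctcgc
Atp5g3: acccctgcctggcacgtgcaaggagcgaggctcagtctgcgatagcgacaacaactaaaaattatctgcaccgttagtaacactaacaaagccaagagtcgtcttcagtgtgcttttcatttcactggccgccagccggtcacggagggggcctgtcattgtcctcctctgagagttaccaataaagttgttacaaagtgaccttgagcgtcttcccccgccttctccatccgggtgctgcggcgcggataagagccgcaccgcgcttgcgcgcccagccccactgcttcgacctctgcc

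The subunit genes varied between replicates of a group. The median log2 SD within a group was 0.65 over the subunit genes in Hopx high and 0.67 in Hopx low, where all genes had 0.48 and 0.42, while in naive cells it was 0.47, where all genes had 0.75. In same-numbered Hopx libraries the deviations from the group mean correlated across the 76 genes, which are not independent, with r = 0.314, 0.659 and 0.134 for replicates 1 to 3. The 4 genes that follow were picked because they show a shared low replicate. Cox5a, a complex IV subunit around the catalytic core, was at 69.5, 47.5 and 6.63 bases per Mb in Hopx high and at 93.8, 42.8 and 9.69 in Hopx low, against 24.3, 25.6 and 12.8 in naive libraries, so it was lowest in replicate 3 of all groups. Uqcrfs1, the Rieske iron-sulfur protein of complex III, was at 205, 155 and 37.2 in Hopx high and at 184, 158 and 72.3 in Hopx low, against 71.8, 72.0 and 58.8 in naive libraries, with the same low replicate 3. Cox4i1, the general isoform of the main regulatory subunit of complex IV, was at 301, 98 and 220 in Hopx high and at 282, 85.7 and 134 in Hopx low, against 99.0, 126 and 101 in naive libraries, and replicate 2 was low in both Hopx groups. Atp5d, the delta subunit of the F1 part of ATP synthase, had the same low replicate 2, at 442, 125 and 260 in Hopx high and 363, 127 and 181 in Hopx low, against 362, 461 and 201 in naive libraries. Within same-numbered pairs, the median log2 difference of Hopx high from Hopx low over the 76 genes was -0.10 in pair 1, 0.16 in pair 2 and -0.34 in pair 3, and over all genes 0.07, -0.03 and -0.75. The sign over the subunit genes thus differed between pairs.

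Other mitochondrial gene lists held few calls, and calls were few over all genes as well. Of all genes tested, 3.8% were called in Hopx high against naive and 0.305% in Hopx low against naive. In Hopx high against Hopx low it was 0.0%, or 0.636% with the 6 Hopx libraries fitted alone. No gene was called in any comparison among 18 partners of the complexes outside the symbol rule, 48 assembly factors, 21 genes of the tricarboxylic acid cycle, 77 of the mitochondrial ribosome and 24 tested regulators of mitochondrial DNA expression and biogenesis. Of 31 genes of mitochondrial protein import, 1 was called, in Hopx high against naive, where 3.8% of all genes were. This was Timm10, a chaperone of the intermembrane space, at 839, 670 and 338 bases per Mb in Hopx high and at 490, 649 and 618 in Hopx low, against 108, 96.3 and 238 in naive libraries. All Hopx libraries were above naive, with log2 differences of 1.87 ± 0.51 in Hopx high (SE, limma adjusted p = 0.0472) and 1.89 ± 0.51 in Hopx low (SE, limma adjusted p = 0.131). The call of Timm10 was lost without Hopx high 1 or 2, any Hopx low library or naive 2 (limma adjusted p = 0.0543 to 0.198), and held in 6 of 20 alternatives. Cyc1, the cytochrome c1 subunit of complex III, was at 649, 349 and 479 in Hopx high and at 530, 292 and 374 in Hopx low, against 221, 293 and 206 in naive libraries, with a log2 difference of 1.05 in Hopx high against naive (limma adjusted p = 0.28). Subunits encoded in mitochondrial DNA could not be analysed, as none of 26 symbols searched for them was among the deposited rows.

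The median log2 difference in Hopx high against Hopx low was -0.30 for the partners, -0.26 for assembly factors, -0.24 for the tricarboxylic acid cycle, -0.23 for the mitochondrial ribosome, -0.22 for import and -0.25 for the regulators, beside -0.25 over all genes tested. In Hopx high against naive the medians were 0.48, 0.15, 0.57, 0.42, 0.49 and 0.22 in the same order, and in Hopx low against naive 0.69, 0.48, 0.70, 0.58, 0.76 and 0.32, beside 0.15 and 0.38 over all genes. Scaling each library by its median gene removes the shift of all genes between Hopx high and Hopx low, from -0.25 to 0.00, and moves the median of the subunit genes from -0.14 to 0.12, so the direction of that median depends on the scaling. The Myc gene, whose product is known to drive mitochondrial biogenesis, was at 975, 473 and 481 in Hopx high and at 1100, 616 and 585 in Hopx low, against 518, 666 and 560 in naive libraries, and overlapped between all groups.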

How the data were processed

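RNA of 9 libraries was depleted of ribosomal RNA and prepared with Ion Torrent reagents, per the labels' protocols; mm10 and bedtools were used, per the submitters' processing notes. No source used here names the aligner, the annotation or the strand setting. The authors deposited a coverage signal per gene, which is each row's bases of coverage with 1 added, as a share of its library's total, times the mean of the 9 totals. Bases recovered from it were whole in 100% of values (tolerance 1e-06), which does not give reads. The authors also deposited group means, a ratio (fold) and an unadjusted p-value per comparison.

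Bases were rescaled to bases per Mb. limma 3.58.1 (R 4.3.3, variance trend) was fitted to log2(bases per Mb + 1) of 10825 genes with a mean of at least 1, over all 3 groups, with Benjamini-Hochberg adjustment over all genes at 0.05; differences are on this log2 scale and understate those of low genes. It was tested on simulated data. Gene positions and principal transcript lengths are from GENCODE's GRCm38 annotation, the mm10 assembly. Naive replicates 1 and 2 were averaged, since their coverage differed by 0.976 of the assumed sampling variance (100 bases per read), against 5.89 to 18.0 for other pairs of a group. Same-numbered Hopx high and Hopx low libraries deviated together (r = 0.476, 0.478 and 0.181 over 6204 genes, which are not independent). Their numbers were therefore taken as pairs in the blocked fits and in the differences within pairs. The main fits used the group alone and left this pairing out. Numbers of naive libraries were not taken as pairs. Their r with the same-numbered Hopx library ran from -0.178 to 0.643, and the same number was the best match only for replicate 3. The labels describe naive replicates 1 and 2 as naive1A and naive1B, so the check cannot decide for these numbers. These libraries are nearly alike and compete for the best match, and the 1B library is set against Hopx replicates 2. With Hopx high and Hopx low, r was 0.272 and 0.585 for replicate 1 and 0.087 and 0.643 for replicate 3.

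The subunit genes, gene lists and tests were chosen with earlier results of these data known. Genes named with values in every library were those called (or, in a comparison with none, the 3 of smallest p), the 2 highest per kb in each complex, 11 core subunits, the isoform groups and those at the expression limit, and genes named beyond these were chosen after their values were seen. Alternatives changed scaling, filter, pseudocount, variance trend, replicate block, samples fitted and 1 library at a time.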

Additional observations from a re-analysis of the deposited data

How the results depend on the processing

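No called gene changed direction under any alternative run, but medians and sums that rest on no call did. The median log2 difference of the subunit genes in Hopx high against Hopx low, -0.14, was 0.12 with median-gene scaling, 0.06 with quantile normalization and 0.03 without Hopx low 1. With median-gene scaling complex IV summed to 950.2 in Hopx low against 1099 in naive cells, and all complexes to 7734 in Hopx high against 6749 in Hopx low, so the order of both pairs turned. In Hopx high against Hopx low, 0 subunit genes were called under every one, and the replicate block left 0 in both fits. In Hopx high against naive, the count of 2 was 5 with quantile normalization or with naive 1 and 2 as separate samples (6.75% and 8.02% of all genes called), 1 with the values as deposited, without variance trend or with only the groups compared in the fit, and 0 without the filter on low genes. Leaving out 1 library gave 1 to 8 (8 without naive 3, with 25.1% of all genes called, where the averaged naive 1 and 2 is a lone sample assumed to vary like the other groups). The replicate block called 3 (Cox8a, Ndufb2 and Uqcrq; 2.73% of all genes). In Hopx low against naive, the count of 1 was 0 with median-gene scaling, without Gas5 in the total, with quantile normalization, with values as deposited, without filter, without variance trend, with the replicate block and with only the groups compared, and 0 to 11 with 1 library left out (11 without naive 3, with 25.7% of all genes called). Naive numbers were not taken as pairs with those of the Hopx groups. The block nevertheless ties the averaged naive 1 and 2 to Hopx replicates 1, and naive 3 to Hopx replicates 3. Its counts against naive rest on that pairing. Ndufb2 in Hopx high against naive was called in 19 of 20 alternatives (log2 difference 3.02 to 4.21; adjusted p = 0.152 without filter), Ndufc2 in 8 of 20 (adjusted p = 0.00234 to 0.177), and Ndufb2 in Hopx low against naive in 9 of 20 (adjusted p = 4.84e-05 to 0.498). The summed level of complex I in Hopx low was 2089 with median-gene scaling. In naive cells, median-gene scaling, totals without Gas5 and quantile normalization gave 1569, 1772 and 1500 for complex I, 2291, 2614 and 2179 for complex V, and 5942, 6742 and 5614 for all complexes; totals without Gas5 gave 826.8 for complex III and 1202 for complex IV. With 1 naive library left out, the naive sums were 1950 to 2099 for complex V and 4978 to 5412 for all complexes. The cause of these changes was not tested. Naive 1 and 2 had the least coverage, which limits the low genes most.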

Other observations

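A gene outside the symbol rule shared some features of the pattern of Ndufb2. 2010107E04Rik, listed in RefSeq as Atp5mpl, a small subunit of the ATP synthase, was at 263, 621 and 172 bases per Mb in Hopx high and at 354, 1090 and 263 in Hopx low, against 48.4, 67.8 and 121 in naive libraries. All Hopx libraries were above the naive ones and replicate 2 was the highest in both Hopx groups. Neither difference passed the test, with log2 differences of 1.85 ± 0.62 in Hopx high against naive (SE, limma adjusted p = 0.12) and 2.46 ± 0.62 in Hopx low against naive (SE, limma adjusted p = 0.101). In Hopx high against Hopx low the log2 difference of 2010107E04Rik was -0.62, where that of Ndufb2 was 0.41 (limma adjusted p = 0.992 for each). This gene was picked after its values were seen.

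In the authors' deposited table, which averages the 3 naive libraries, 9 of 83 subunit genes had an unadjusted p under 0.05 in Hopx high over naive (6 higher, 3 lower), where 7.05% of all rows had. In Hopx low over naive there were 12 (11 higher, 1 lower), where 6.32% of all rows had. In Hopx high over Hopx low there was 1, Cox6b2, lower, where 3.82% of all rows had.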
